A study of Mus musculus with 24 samples.

Results

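Phospholipases A2 cut fatty acids such as arachidonate out of membrane phospholipids, and acyl-CoA synthetases and lysophospholipid acyltransferases put them back. The expression of 10 genes of this cycle was followed in bone marrow-derived macrophages (BMDMs): the 5 phospholipases Pla2g4a, Pla2g6, Pla2g7, Pla2g12a and Pla2g15, and the 5 remodelling enzymes Lpcat1, Lpcat2, Lpcat3, Acsl4 and Mboat7. They were chosen by symbol, with earlier results of these data known. Each matched 1 gene of the 55421 in the count table, and all 10 were among the 16593 genes with enough counts to be tested. The study asked how the aryl hydrocarbon receptor (AhR), a ligand-activated transcription factor, shapes lipid mediator production in macrophages that resemble those of the alveoli. Its 24 RNA sequencing libraries form 4 groups of 6: unstimulated wildtype, unstimulated AhR-deficient, LPS-stimulated wildtype and LPS-stimulated AhR-deficient cells. Wildtype mice were C57BL/6J, and AhR-deficient (AhR-KO) mice were homozygous for the germline allele Ahr tm1Bra, so that the receptor was lost in every cell from the start of development and not only in the cultured macrophages. All cultures were grown from bone marrow with GM-CSF at 10 ng/ml and TGF-β at 2 ng/ml. LPS, a bacterial cell wall component, was given at 97 EU/ml on day 6 for 24 h, and the treatment protocol ends with the calcium ionophore A23187 at 5 µM for 10 min. The study's lipid measurements followed ionophore in unstimulated and stimulated cultures alike, but for the sequenced cultures this is not stated separately, and the part of the ionophore in the LPS comparisons was not tested. The methods give 6 animals per group from 1 experiment, and whether unstimulated and stimulated cultures came from the same animals is not given in the sources used here.

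Free arachidonate is the substrate of the cyclooxygenase and lipoxygenase routes to prostanoids and leukotrienes, and how much of it is free depends on the balance between release and re-esterification. Pla2g4a encodes cytosolic phospholipase A2 alpha, which moves to membranes when calcium rises and prefers arachidonate at the middle position of the glycerol backbone. Acsl4 encodes the acyl-CoA synthetase that activates arachidonate, while Lpcat3 and Mboat7 encode acyltransferases that place it into phosphatidylcholine and phosphatidylinositol. Another product of the same cycle is platelet-activating factor (PAF): Lpcat2 encodes the LPS-responsive lyso-PAF acetyltransferase of macrophages, Lpcat1 an acyltransferase best known from the making of surfactant lipid in the alveolus, and Pla2g7 the secreted acetylhydrolase that inactivates PAF.

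The promoters of the genes whose level differed between genotypes are shown because the deleted protein is a transcription factor that binds DNA with its partner ARNT at the core motif GCGTG. Each window runs from 250 bases before to 50 bases after the RefSeq transcription start on GRCm38.p6, the build mm10 of the count table, and all 10 genes matched. Capitals mark the core GCGTG on either strand, so that a match on the opposite strand reads CACGC.
Pla2g7 promoter, chr17:43568201-43568500, plus strand: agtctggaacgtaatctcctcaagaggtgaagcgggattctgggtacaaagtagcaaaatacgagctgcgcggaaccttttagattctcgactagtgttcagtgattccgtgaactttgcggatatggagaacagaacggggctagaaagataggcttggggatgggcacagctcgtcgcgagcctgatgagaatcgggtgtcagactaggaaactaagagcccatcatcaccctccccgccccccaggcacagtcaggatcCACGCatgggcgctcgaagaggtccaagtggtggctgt
Pla2g15 promoter, chr8:106150104-106150403, plus strand: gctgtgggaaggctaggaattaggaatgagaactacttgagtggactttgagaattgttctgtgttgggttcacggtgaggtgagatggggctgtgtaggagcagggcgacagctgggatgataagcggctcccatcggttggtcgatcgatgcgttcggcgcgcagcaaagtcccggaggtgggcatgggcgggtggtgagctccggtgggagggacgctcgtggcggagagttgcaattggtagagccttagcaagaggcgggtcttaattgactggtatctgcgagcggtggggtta
Pla2g4a promoter, chr1:149961241-149961540, minus strand: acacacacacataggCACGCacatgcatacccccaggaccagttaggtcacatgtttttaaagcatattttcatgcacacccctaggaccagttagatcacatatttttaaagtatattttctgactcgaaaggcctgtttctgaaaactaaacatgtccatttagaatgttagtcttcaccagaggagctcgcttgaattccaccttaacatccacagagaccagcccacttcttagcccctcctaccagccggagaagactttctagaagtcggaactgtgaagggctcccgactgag
Lpcat1 promoter, chr13:73466981-73467280, plus strand: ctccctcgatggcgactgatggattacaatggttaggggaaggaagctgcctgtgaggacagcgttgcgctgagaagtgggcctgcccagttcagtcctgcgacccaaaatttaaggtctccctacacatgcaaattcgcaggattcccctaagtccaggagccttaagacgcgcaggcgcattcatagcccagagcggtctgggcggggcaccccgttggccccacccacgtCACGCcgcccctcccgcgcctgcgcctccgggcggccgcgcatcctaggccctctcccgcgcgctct
Of these windows, 3 hold the core once, beginning at position 12 in Pla2g7, -235 in Pla2g4a and -17 in Lpcat1 when the start site is position 0, and the Pla2g15 window does not hold these letters. Over all genes of the cycle, 7 of 10 windows held the core, with 9 matches in all and 3 of them in Pla2g6, while 32.4% of the 32851 RefSeq promoter windows did. The core contains a CG pair, and 8 of the 10 windows held 15 to 36 CG pairs against a median of 7 over all windows. The window of Pla2g12a was taken from a RefSeq start 2578 bases inside the annotated gene. The longer form TNGCGTG, which contains the core, was in none of the 10 windows and in 5.07% of all. The motif of the interferon-stimulated response element was in 1 window, that of Pla2g6, against 3.44% of all, and the AP-1 motif TGANTCA was in none, against 7.81%. The share of G and C ranged from 45.3% in Pla2g4a to 71.7% in Acsl4, with a median over all windows of 52.7%. These matches are descriptions of the letters and not of binding.

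In the annotation of the table's release (mm10), Pla2g7 lies at chr17:43568098-43612201, Pla2g15 at chr8:106150399-106164715 and Lpcat1 at chr13:73467197-73516422, all on the plus strand, and Pla2g4a at chr1:149829618-149961290 on the minus strand. The RefSeq start of Pla2g7 is 353 bases inside the annotated gene, that of Lpcat1 34 bases inside, that of Pla2g15 45 bases before it and that of Pla2g4a at its first base. No exon of the 10 genes overlaps an exon of another gene on the same strand, and the authors counted with strand, so that antisense neighbours do not share their counts.

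Depth ran from 45106052 to 76992663 counted fragments, and the biological coefficient of variation was 49.1%. Values below are CPM, counts brought to a common library size with TMM factors, or CPM divided by the gene's exon length in kilobases (kb) where genes are compared with each other. Differences are log2 fold changes with the standard error (SE), from edgeR's quasi-likelihood test with Benjamini-Hochberg adjustment over all tested genes, and a gene is called a DEG at an adjusted p of at most 0.05 if its log2 fold change is also 1 or more in size. Ahr itself was at 28.3 ± 12.2 CPM (SD, n = 6) in wildtype and 7.42 ± 2.39 CPM in AhR-deficient cells without stimulation, but at 16.8 ± 7.64 and 43.1 ± 16.2 CPM after LPS, so the transcript level was above wildtype there, and counts over the whole gene do not show whether the deleted part is present. All 8 macrophage markers reached 1 CPM in every group, and of 9 alveolar macrophage markers 9 did without stimulation and 8 after LPS. The alveolar marker sum without Chil3, the leading gene, moved with genotype. Without stimulation it was 1573 to 2190 CPM in wildtype and 3061 to 5004 CPM in AhR-deficient libraries. After LPS it was 1708 to 2471 and 3641 to 6498 CPM, although Pparg, Fabp4 and Cidec had lower means in AhR-deficient cells there. Markers of other cells moved with genotype as well. In the order of groups given above, the median summed level of 9 neutrophil markers was 2571, 416, 1310 and 219 CPM, with Mpo at a mean of at most 0.0716 CPM in any group. That of 10 dendritic and Langerhans cell markers was 413, 38.7, 1484 and 241 CPM, or 364, 38.1, 101 and 16.8 CPM without Ccr7. The rise of the sum with LPS was thus that of Ccr7, while the other 9 together were lower after LPS. Of these, Flt3 and Zbtb46 rose in wildtype cells, from means of 1.55 to 18.6 and from 3.42 to 11.7 CPM, and the rest fell. The median sum of 8 mast cell and basophil markers was 14.5, 3.32, 40.6 and 7.23 CPM, and that of 3 eosinophil markers 73.7, 34.8, 79.0 and 31.5 CPM. Lymphoid and erythroid markers summed to at most 1.19 CPM in any library. In bulk RNA, fewer cells of a type and less RNA per cell cannot be told apart. The library numbers fall into 3 runs of 8 (17 to 24, 25 to 32, 33 to 40), each with 2 libraries of every group, and the labels do not say whether a run is a batch. The slope of log2 CPM on log2 gene length ranged from 0.136 to 0.741 and was lowest in AhR-deficient library 19 and wildtype library 33, both unstimulated. Y-linked genes had at most 4 counts in wildtype libraries 34 and 38 and at least 8596 in each of the others.

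Per length, the cycle was led by Pla2g15 in unstimulated wildtype cells, at 54.9 ± 4.89 CPM per kb (SD, n = 6). Pla2g15 encodes the lysosomal phospholipase A2. It was followed by Lpcat2 at 44.7 ± 15.6, Lpcat3 at 33.8 ± 7.39 and Acsl4 at 26.8 ± 5.69 CPM per kb, and each neighbour in this order overlapped the next in its libraries. Without the division by length the means were 165 CPM for Pla2g15, 151 for Lpcat2, 145 for Acsl4 and 110 for Lpcat3. The order of Lpcat3 and Acsl4 thus depends on the division. Pla2g7, Pla2g4a, Lpcat1 and Mboat7 lay between 8.25 and 13.7 CPM per kb and also overlapped. Pla2g12a, which encodes a secreted phospholipase of atypical structure, stood at 1.06 CPM per kb and Pla2g6, which encodes the calcium-independent enzyme iPLA2 beta, at 0.371 CPM per kb. After LPS the order was led by Pla2g7 in both genotypes, at 151 ± 49.9 CPM per kb in wildtype and 121 ± 43.0 in AhR-deficient cells, and Pla2g12a and Pla2g6 remained the lowest.

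**Figure D1:**
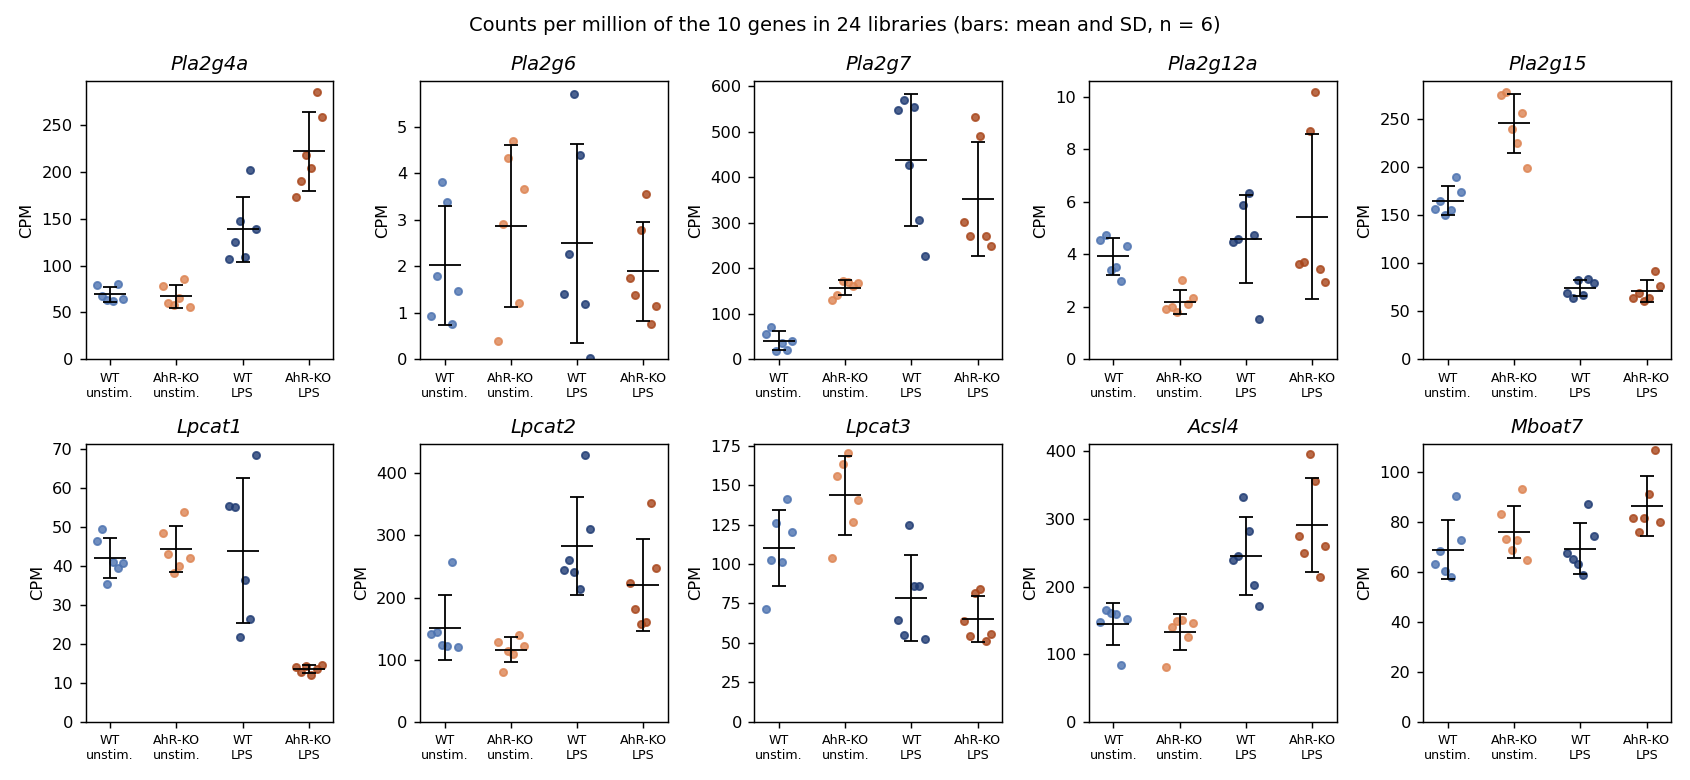
CPM (linear axes starting at 0) of the 10 genes in each of the 24 libraries, by group; points are libraries and black bars the mean and SD of 6. The 6 unstimulated AhR-deficient libraries lie above all unstimulated wildtype ones for Pla2g7 and Pla2g15, and the LPS-stimulated AhR-deficient libraries lie between 11.9 and 14.6 CPM for Lpcat1, below all others.

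Without stimulation, the acetylhydrolase gene Pla2g7 and the lysosomal phospholipase gene Pla2g15 were higher in AhR-deficient than in wildtype cells, and no gene of the cycle was lower at the adjusted p. Pla2g7 was the only DEG, 1 of 10 genes, where 0.916% of all tested genes were DEGs in this direction and 4.48% in either. At any fold size, 2 of 10 passed the adjusted p, against 1.83% of all genes in this direction and 6.12% in either. The median log2 fold change of the 10 genes was 0.11, against -0.01 over all tested genes.

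Pla2g7 ranged from 17.1 to 71.3 CPM with a median of 37.6 in the wildtype libraries and from 131 to 171 CPM with a median of 164.5 in the AhR-deficient ones. Every AhR-deficient library was thus above every wildtype library, and the spread was wider in wildtype, with a coefficient of variation of 52.3% against 10.7%. The log2 fold change was 1.98 ± 0.31 (SE), a 3.93-fold difference with a 95% interval of 1.33 to 2.62 on the log2 scale (edgeR, adjusted p = 1.4e-04). It was positive in all 3 runs, at 1.10, 2.77 and 2.52 as differences of mean log2(CPM + 0.5). The wildtype libraries 33 and 25, which had the highest neutrophil marker sums (12710 and 4995 CPM), had the lowest Pla2g7 levels at 20.1 and 17.1 CPM, and library 18, with the lowest sum (1677 CPM), had the highest at 71.3 CPM, still below every AhR-deficient library. Library 17 did not follow this order, with the next highest neutrophil sum (3036 CPM) after those of 33 and 25 and Pla2g7 at 55.9 CPM. Libraries 25 and 33 also had the lowest sums of the 9 dendritic markers other than Ccr7, 153 and 169 CPM against 312 to 462 CPM in the other four, and the part of either kind of cell in the result was not tested.

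Pla2g15 ranged from 151 to 190 CPM with a median of 161 in wildtype and from 199 to 279 CPM with a median of 248 in AhR-deficient cells. The groups did not overlap, with wildtype library 33 and AhR-deficient library 36 the nearest to each other. The log2 fold change was 0.57 ± 0.12 (SE), or 1.49-fold (edgeR, adjusted p = 0.0025), and the within-run differences were 0.79, 0.60 and 0.31. These were the 2 genes of 10 whose libraries did not overlap, against 5.15% of all tested genes.

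Pla2g12a pointed the other way, at 2.97 to 4.73 CPM in wildtype and 1.78 to 2.99 CPM in AhR-deficient cells, where 5 of 6 libraries were below all wildtype ones. Its log2 fold change of -0.84 ± 0.32 (SE) did not pass (edgeR, adjusted p = 0.155), but did with the 12 libraries compared as the only ones in the fit (adjusted p = 0.025) or after adding the length slope to the model (adjusted p = 0.02). The remodelling genes did not differ past the threshold. Lpcat3 was at 110 ± 24.2 CPM (SD, n = 6) in wildtype and 144 ± 25.1 in AhR-deficient cells, with a 95% interval of the log2 fold change from -0.04 to 0.80. Lpcat1 had an interval of -0.34 to 0.49, Acsl4 of -0.54 to 0.27 and Pla2g4a of -0.37 to 0.29. Pla2g6, at 0.385 to 4.70 CPM in both groups together, had an interval of -0.91 to 1.92 and could not be placed.

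After LPS, Lpcat1 was lower and Pla2g4a higher in AhR-deficient than in wildtype cells. Lpcat1 was the only DEG of the cycle, 1 of 10 genes against 6.19% of all tested genes in this direction and 8.36% in either. At any fold size, 2 of 10 passed the adjusted p, against 12.6% of all genes, and the median log2 fold change of the 10 was -0.16, against -0.05 over all genes. The count of genes called is near that over all genes.

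Lpcat1 ranged from 21.8 to 68.6 CPM with a median of 45.9 in wildtype cells after LPS and from 11.9 to 14.6 CPM with a median of 13.8 in AhR-deficient ones. The groups did not overlap, as for 7.11% of all tested genes, and no other gene of the cycle showed this. The AhR-deficient libraries were close together, with a coefficient of variation of 7.66%, while the wildtype libraries spread over a coefficient of variation of 42.2%. The log2 fold change was -1.70 ± 0.21 (SE), or 3.25-fold lower (edgeR, adjusted p = 3.9e-06), with a 95% interval from -2.13 to -1.27. It was negative in every run, at -2.003, -1.08 and -1.57.

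After LPS the dendritic and Langerhans cell marker sum was almost all Ccr7, the gene of a chemokine receptor of migrating dendritic cells, which made up 85.5% to 98.01% of it in the stimulated libraries. The spread of Lpcat1 among the stimulated wildtype libraries ran with Ccr7. Libraries 29, 37 and 30 had Ccr7 at 541, 785 and 1187 CPM and Lpcat1 at 21.8, 26.4 and 36.5 CPM. Libraries 21, 22 and 38 had Ccr7 at 1563, 1657 and 2414 CPM and Lpcat1 at 55.4, 55.3 and 68.6 CPM. In stimulated AhR-deficient libraries Ccr7 ranged from 96.5 to 884 CPM while Lpcat1 stayed at 11.9 to 14.6 CPM, and library 31, with the highest Ccr7 of these, was above wildtype libraries 29 and 37 in Ccr7 and below both in Lpcat1, at 14.3 CPM. Libraries 29 and 37 also had the highest neutrophil marker sums of the group, 3608 and 8432 CPM. The sum of the other 9 dendritic markers was 76.02 to 117 CPM in stimulated wildtype libraries, lowest in 37 and 29, and 9.67 to 17.9 CPM in stimulated AhR-deficient ones, so it separated the genotypes as Lpcat1 did. Without stimulation that sum was 364 against 38.1 CPM at the median while the Lpcat1 groups overlapped, at 42.1 ± 5.11 and 44.3 ± 5.93 CPM (SD, n = 6). The part of these cells in the Lpcat1 difference was not tested.

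Pla2g4a ranged from 107 to 202 CPM with a median of 132 in wildtype and from 174 to 286 CPM with a median of 211 in AhR-deficient cells after LPS. The groups overlapped through wildtype library 37, the highest of its group, and 4 of 6 AhR-deficient libraries were above all wildtype ones. The log2 fold change of 0.68 ± 0.16 (SE), or 1.60-fold, passed the adjusted p but not the fold limit (edgeR, adjusted p = 0.0047). The within-run differences were 0.65, 0.73 and 0.69, and within each run the libraries of the genotypes did not overlap.

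Among the remaining genes after LPS, Mboat7 was at 69.2 ± 10.1 CPM (SD, n = 6) in wildtype and 86.4 ± 11.95 CPM in AhR-deficient cells, with a log2 fold change of 0.32 ± 0.13 (SE) and an adjusted p of 0.125 (edgeR). It passed with runs as a factor (adjusted p = 0.032), with the length slope in the model (adjusted p = 0.0053) and when only genes with a mean of at least 1 CPM were tested (adjusted p = 0.045). Pla2g7, which differed without stimulation, was at 227 to 569.5 CPM in wildtype and 250 to 532 CPM in AhR-deficient cells, and its log2 fold change of -0.32 had a 95% interval from -0.93 to 0.30. Pla2g15 was at 74.3 ± 8.58 and 71.2 ± 11.6 CPM, with an interval from -0.31 to 0.18. Lpcat2 was at 283 ± 78.7 and 220 ± 74.1 CPM, and its interval ran from -0.82 to 0.10. With the length slope in the model Lpcat2 (-0.45, adjusted p = 0.0083) and Acsl4 (0.32, adjusted p = 0.0036) passed as well. Total library size, under which the median of all genes in this comparison was -0.26, gave -0.57 for Lpcat2 (adjusted p = 0.022) and -0.28 for Pla2g15 (adjusted p = 0.03), or -0.31 and -0.02 relative to that median.

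**Figure D2:**
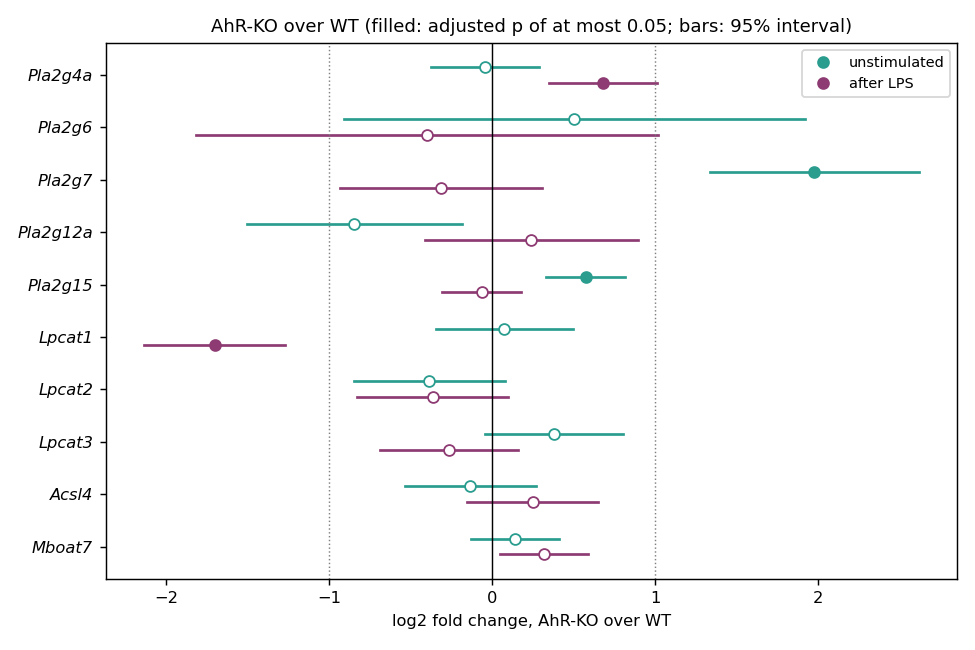
Log2 fold change of AhR-deficient over wildtype cells for the 10 genes, without stimulation and after LPS; points are edgeR estimates, bars 95% intervals, filled points pass an adjusted p of at most 0.05 and dotted lines mark the fold limit of 1. Pla2g7 (1.98) and Lpcat1 (-1.70) lie past the fold limit, each in 1 of the 2 states.

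LPS raised Pla2g7, Pla2g4a, Lpcat2 and Acsl4 and lowered Pla2g15 in both genotypes, and it raised Pla2g12a and lowered Lpcat1 and Lpcat3 past the threshold in AhR-deficient cells. In wildtype cells 3 of 10 genes were DEGs, against 24.9% of all tested genes, and 5 of 10 passed the adjusted p at any fold size, against 38%. In AhR-deficient cells 7 of 10 were DEGs, against 30.8% of all tested genes, and 8 of 10 passed at any fold size, against 44.6%. With total library size, 4 of 10 were DEGs there, against 36.9% of all tested genes: Pla2g4a, Pla2g15, Lpcat1 and Lpcat3. The median log2 fold change of the 10 was 0.27 in wildtype and 0.56 in AhR-deficient cells, against 0.03 and -0.03 over all genes. Both comparisons rest on their own control libraries, and they share the 24-library fit.

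Among the phospholipase family genes, Pla2g7 rose from a median of 37.6 to 487.5 CPM in wildtype and from 164.5 to 286 CPM in AhR-deficient cells, and in both genotypes every stimulated library was above every unstimulated one. The log2 fold changes were 3.46 ± 0.33 (SE; edgeR, adjusted p = 1.2e-08), or 11.0-fold, and 1.17 ± 0.30 (adjusted p = 0.0028), or 2.25-fold. Scaling by total library size moved the median of all genes to -0.31 in wildtype and -0.52 in AhR-deficient cells, with TMM factors of 0.704 to 1.01 in stimulated and 0.953 to 1.30 in unstimulated libraries, and under it the second value was 0.68 with an adjusted p of 0.089. Relative to that median it was 1.20, as with TMM factors.

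Pla2g4a rose from a median of 65.7 to 132 CPM in wildtype and from 62.7 to 211 CPM in AhR-deficient cells, without overlap in either genotype. Its log2 fold changes were 1.001 ± 0.16 (SE; edgeR, adjusted p = 2.2e-05) and 1.73 ± 0.16 (adjusted p = 6.4e-09). The wildtype value lies at the fold limit and fell below it in 6 alternatives, to 0.64 with total library size and 0.93 to 0.99 in the others, and when any of 6 libraries was left out, to 0.88 without wildtype library 37 and 0.97 to 0.99 without the others, with an adjusted p of at most 4.5e-04 throughout. Pla2g12a was called in AhR-deficient cells only, from 2.18 ± 0.44 to 5.42 ± 3.14 CPM (SD, n = 6), with a log2 fold change of 1.32 ± 0.32 (SE; edgeR, adjusted p = 0.0017). Its stimulated AhR-deficient libraries 31 and 32 were at 8.67 and 10.2 CPM and the other four at 2.93 to 3.70 CPM, so that the range overlapped the unstimulated one by 1 library. In wildtype it was at 3.91 ± 0.72 and 4.58 ± 1.68 CPM, and the difference between the genotypes' responses was not called (interaction 1.09 ± 0.45 SE, edgeR, adjusted p = 0.242) except with the length slope in the model. With total library size its LPS value in AhR-deficient cells was 0.83 (adjusted p = 0.047), below the fold limit.

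Pla2g15 fell from a median of 161 to 74.4 CPM in wildtype and from 248 to 66.8 CPM in AhR-deficient cells, without overlap in either. The log2 fold changes were -1.15 ± 0.12 (SE; edgeR, adjusted p = 4.2e-08) and -1.79 ± 0.12 (adjusted p = 2.1e-11). Pla2g6 was not called in either genotype, with 95% intervals from -1.11 to 1.72 and from -2.02 to 0.82. Its level ran with the library runs more than with the groups: the 8 libraries of the run 25 to 32 lay between 2.77 and 5.70 CPM and the other 16 between 0.0245 and 3.67 CPM, the lowest being wildtype library 38 after LPS, with 1 count.

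Of the remodelling genes, Lpcat2 rose from a median of 132 to 252 CPM in wildtype and from 118 to 202 CPM in AhR-deficient cells. The log2 fold changes of 0.91 ± 0.22 (SE; edgeR, adjusted p = 0.0024) and 0.93 ± 0.22 (adjusted p = 0.0016) passed the adjusted p but not the fold limit. The libraries overlapped in wildtype, where unstimulated library 33 stood at 257 CPM, and did not in AhR-deficient cells. Without library 33 the wildtype value was 1.13, past the fold limit, and with the length slope in the model it was 1.007. The AhR-deficient value passed the limit without stimulated library 31 (1.019) or 32 (1.015).

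Acsl4 rose from a median of 156 to 242 CPM in wildtype and from 143.5 to 267 CPM in AhR-deficient cells, and no stimulated library overlapped an unstimulated one in either genotype. The log2 fold changes were 0.76 ± 0.20 (SE; edgeR, adjusted p = 0.0033) and 1.14 ± 0.20 (adjusted p = 4.3e-05). With total library size they were 0.40 (adjusted p = 0.19) and 0.64 (adjusted p = 0.03), and 0.72 and 1.16 relative to the median of all genes.

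Lpcat3 and Lpcat1 were lower after LPS in AhR-deficient cells. Lpcat3 fell there from a median of 148 to 60.0 CPM without overlap, with a log2 fold change of -1.14 ± 0.21 (SE; edgeR, adjusted p = 8.0e-05). In wildtype cells it went from 111 to 75.2 CPM with overlap, and -0.50 ± 0.20 (SE) did not pass (adjusted p = 0.06), although it did with DESeq2, limma-voom, runs as a factor, the length slope, total library size or a mean of at least 1 CPM. Lpcat1 fell in AhR-deficient cells from a median of 42.6 to 13.8 CPM, with a log2 fold change of -1.71 ± 0.21 (SE; edgeR, adjusted p = 3.4e-07). In wildtype cells its 95% interval ran from -0.35 to 0.48. Mboat7 was not called in either genotype, at 0.01 ± 0.13 and 0.19 ± 0.13 (SE), and the sign turned with total library size, to -0.34 (adjusted p = 0.0025) and -0.29 (adjusted p = 0.0055).

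Libraries did not overlap between unstimulated and stimulated cells for 4 of 10 genes in wildtype, against 22.4% of all tested genes, and for 7 of 10 in AhR-deficient cells, against 28.5%.

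**Figure D3:**
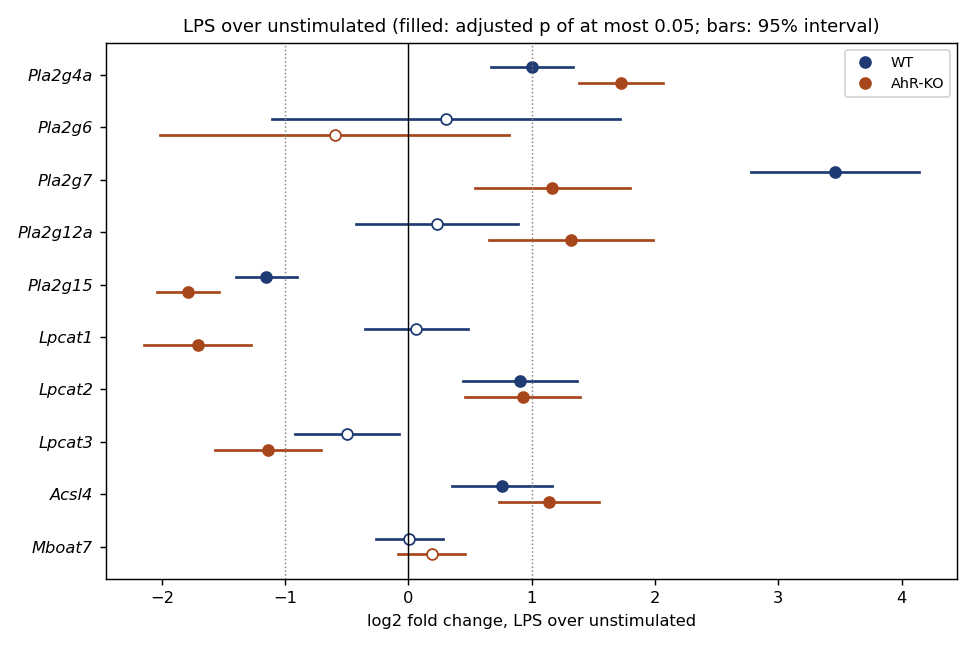
Log2 fold change of LPS-stimulated over unstimulated cells for the 10 genes in wildtype and AhR-deficient BMDMs; points are edgeR estimates, bars 95% intervals, filled points pass an adjusted p of at most 0.05 and dotted lines mark the fold limit of 1. The bars of the genotypes do not overlap for Pla2g7 (3.46 and 1.17), Pla2g15 (-1.15 and -1.79), Lpcat1 (0.06 and -1.71) and Pla2g4a (1.001 and 1.73), of which the last did not pass the interaction test.

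The response to LPS itself differed between the genotypes for 3 of 10 genes by the interaction term (adjusted p of at most 0.05, with no fold limit), against 4.3% of all tested genes, and all 3 terms were negative. With the length slope in the model 6 of 10 passed, against 17.3% of all tested genes, the added terms being positive: Pla2g4a (0.68, adjusted p = 0.0034), Pla2g12a (1.15, adjusted p = 0.031) and Acsl4 (0.47, adjusted p = 0.0055). Pla2g7 had the largest term in size, -2.29 ± 0.43 (SE; edgeR, adjusted p = 0.0021): it rose in both genotypes, from a higher starting level in AhR-deficient cells to overlapping levels after LPS. Lpcat1 had a term of -1.78 ± 0.29 (SE; adjusted p = 6.8e-04), with a fall in AhR-deficient cells only. Pla2g15 had a term of -0.64 ± 0.17 (SE; adjusted p = 0.028), with a steeper fall in AhR-deficient cells to overlapping levels. The call of Pla2g15 was lost with no filter on low counts (adjusted p = 0.072) and without wildtype library 17 (adjusted p = 0.051), AhR-deficient library 20 (0.054) or AhR-deficient library 23 (0.051). Pla2g4a had a positive term of 0.72 ± 0.23 (SE) that missed the threshold (adjusted p = 0.073) and passed with total library size (0.027), DESeq2 (0.034), a mean of at least 1 CPM (0.041), runs as a factor (0.021), without AhR-deficient library 35 (0.049) and without wildtype library 37 (0.016).

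The largest share of the 5 phospholipase family transcripts was that of Pla2g15 without stimulation and that of Pla2g7, whose enzyme acts on PAF, after LPS. Summed over the 5 phospholipases, the level per length was 80.9 ± 8.48, 147 ± 7.39, 199 ± 44.6 and 182 ± 40.9 CPM per kb (SD, n = 6) in unstimulated wildtype, unstimulated AhR-deficient, stimulated wildtype and stimulated AhR-deficient cells. Of this sum Pla2g15 took 68.2%, 55.3%, 13.3% and 13.7%, and Pla2g7 took 16.5%, 36.8%, 74.1% and 65.5%. The shares of Pla2g7 in the unstimulated groups did not overlap, with 8.30% to 26.8% in wildtype and 30.1% to 43.1% in AhR-deficient libraries. Pla2g4a took 13.5%, 7.11%, 11.8% and 19.9%, while Pla2g6 and Pla2g12a together stayed small, at no more than 1.31% each on average.

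On the remodelling side the sum was 123 ± 16.2, 121 ± 9.36, 171 ± 20.4 and 152 ± 15.2 CPM per kb in the same order. Lpcat2 took the largest share in wildtype cells, 35.8% and 48.6% after LPS, and in stimulated AhR-deficient cells, 42.4%, whereas Lpcat3 led in unstimulated AhR-deficient cells with 36.1% against 28.3% for Lpcat2. Acsl4 took 22.5%, 20.1%, 26.9% and 35.7%. Lpcat1 took 7.52%, 7.96% and 5.77% in the first 3 groups and 1.93% in stimulated AhR-deficient cells, where no library exceeded 2.15%.

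**Figure D4:**
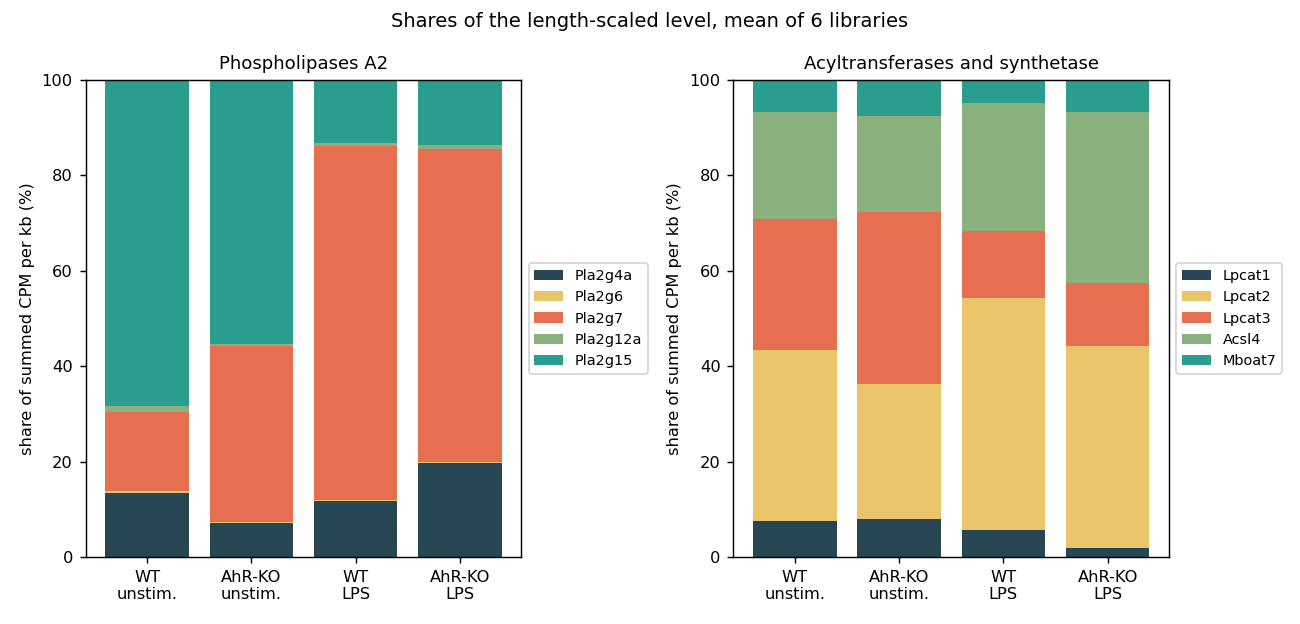
Share of the summed CPM per kb (percent, mean of 6 libraries) taken by each of the 5 phospholipase genes (left) and each of the 5 acyltransferase and synthetase genes (right) in the 4 groups. Pla2g15 makes up 68.2% of the phospholipase sum in unstimulated wildtype cells and Pla2g7 74.1% after LPS.

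The ratio of Lpcat2 to Lpcat1 within a library, which does not depend on library scaling, had a median of 4.12 in unstimulated wildtype and 3.67 in unstimulated AhR-deficient cells, with overlapping ranges. After LPS it ranged from 6.01 to 22.3 with a median of 7.24 in wildtype and from 15.1 to 35.8 with a median of 20.5 in AhR-deficient cells, overlapping through wildtype libraries 29 and 37. The ratio of Pla2g7 to Pla2g15 ranged from 0.110 to 0.447 in unstimulated wildtype and from 0.492 to 0.872 in unstimulated AhR-deficient cells. After LPS it was 2.97 to 9.25 and 3.05 to 9.07, so the separation between the genotypes was seen without stimulation and not after it.

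**Figure D5:**
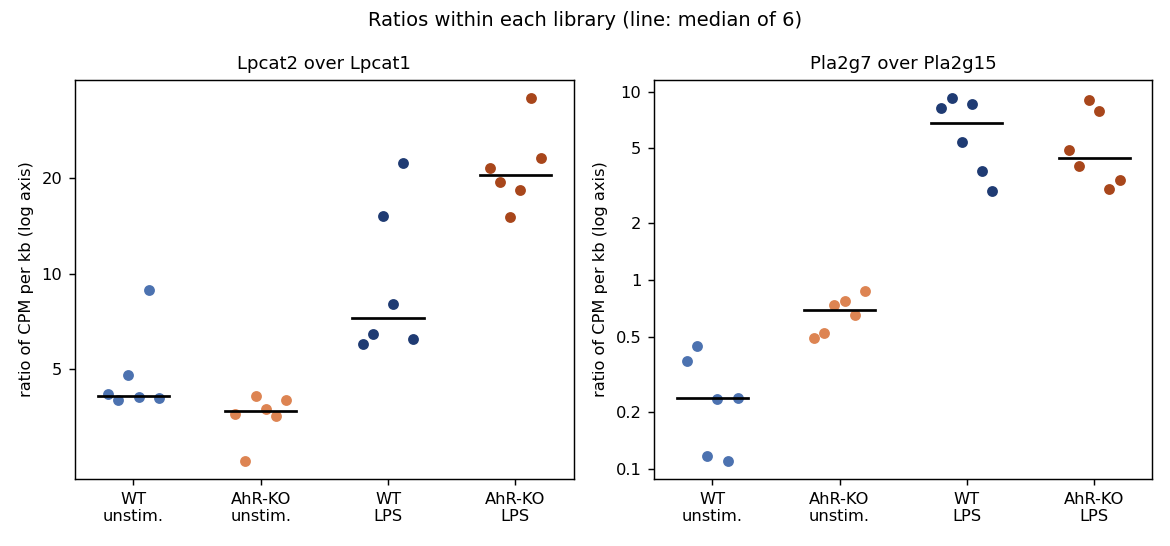
Ratios of CPM per kb within each of the 24 libraries (log axes) for Lpcat2 over Lpcat1 and Pla2g7 over Pla2g15, by group; points are libraries and lines the median of 6. Unstimulated AhR-deficient libraries lie above all unstimulated wildtype libraries for Pla2g7 over Pla2g15, 0.492 or more against 0.447 or less.

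Levels also varied between libraries of 1 group. Lpcat2 was highest in unstimulated wildtype library 33 at 257 CPM, stimulated wildtype library 37 at 430 CPM, unstimulated AhR-deficient library 35 at 140 CPM and stimulated AhR-deficient library 39 at 353 CPM. In each of the 4 groups this was the library with the highest neutrophil marker sum, 12710, 8432, 805 and 1019 CPM, and all were of the run 33 to 40. The length slopes of these libraries, 0.168, 0.273, 0.363 and 0.239, were the lowest or second lowest of their groups, and the part of either in the Lpcat2 level was not tested. Acsl4 was lowest among unstimulated libraries in wildtype 33 and AhR-deficient 19, at 83.7 and 80.8 CPM, which had the lowest length slopes of all. The coefficient of variation of Pla2g15 was 8.91% to 16.4% over the 4 groups, and that of Pla2g6 was 56.5% to 86.1%.

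For the genes that were DEGs between genotypes, the tested genes with the most similar pattern were found by Pearson's correlation of log2(CPM + 0.5) over the 24 libraries, among 12714 genes of at least 1 CPM on average. The libraries span all groups, so differences between groups enter the correlations. For Pla2g7 the most similar genes were H2-M2 (r = 0.935), Dgkq (0.904) and Sdc1 (0.903). For Lpcat1 they were Suv39h2 (0.964), Gstcd (0.947) and Snn (0.939). Suv39h2, a histone methyltransferase gene, had a mean of 8.14 CPM in stimulated wildtype and 0.727 CPM in stimulated AhR-deficient cells, and Snn 67.8 and 4.90 CPM.

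Other genes of the pathway were taken from 3 lists with 68 genes, of which 51 were tested. Of the other phospholipases A2 and PAF acetylhydrolases, 11 of 25 were tested and none passed the adjusted p in either genotype comparison or in the interaction. LPS raised 3 and lowered 1 of them as DEGs in wildtype, where 24.9% of all tested genes were DEGs, and raised 3 and lowered 2 in AhR-deficient cells, where 30.8% were. Named after their values were seen, Pnpla7 fell from 92.3 to 35.8 CPM in wildtype and from 131 to 22.98 CPM in AhR-deficient cells. Pla2g4c, Pla2g4f and Pla2g5, the genes raised in wildtype and named in the same way, stayed below 1 CPM on average in all groups. Pla2g4f had 0 counts in the unstimulated AhR-deficient libraries.

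Of the other acyltransferases and synthetases, 17 of 19 were tested. None was a DEG between genotypes without stimulation, and 1 was after LPS, against 8.36% of all tested genes: Gpat3, which encodes a glycerol-3-phosphate acyltransferase, at 31.5 CPM in wildtype and 74.9 CPM in AhR-deficient cells, with a log2 fold change of 1.25 ± 0.31 (SE; edgeR, adjusted p = 0.0076), lost with only the 12 libraries compared (adjusted p = 0.053). LPS raised 3 and lowered 2 as DEGs in wildtype, against 24.9% of all tested genes, and raised 5 and lowered 2 in AhR-deficient cells, against 30.8%. The interaction was called for 3 of 17, against 4.3% of all tested genes: Gpat3 (1.65) and, named after their values were seen, Mboat1 (1.10) and Acsl3 (-0.95). Acsl1, named in the same way, rose from 80.0 to 685 CPM in wildtype and from 87.4 to 695 CPM in AhR-deficient cells.

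Of the genes for other arachidonate sources and lysophospholipid turnover, 23 of 24 were tested, and 2 were DEGs between genotypes in each state, all higher in AhR-deficient cells, against 4.48% of all tested genes without stimulation and 8.36% after LPS. Daglb, which encodes a diacylglycerol lipase of the route to 2-arachidonoylglycerol, was higher in both, at 17.4 against 47.7 CPM without stimulation (log2 fold change 1.45 ± 0.23 SE, edgeR, adjusted p = 1.7e-04) and 4.19 against 10.5 CPM after LPS (1.33 ± 0.23 SE, adjusted p = 2.8e-04). Naaa, which encodes an acid amidase of N-acylethanolamines, was at 416 and 860 CPM without stimulation, a log2 fold change of 1.05 ± 0.23 (SE; edgeR, adjusted p = 0.0044) that fell below the fold limit with total library size and without any of 4 libraries. Pld4 was at 16.7 and 63.2 CPM after LPS, a log2 fold change of 1.92 ± 0.22 (SE; edgeR, adjusted p = 1.5e-06). LPS raised 2 and lowered 4 of these genes as DEGs in wildtype, against 24.9% of all tested genes, and raised 3 and lowered 7 in AhR-deficient cells, against 30.8%. The interaction was called for 3 of 23, against 4.3% of all tested genes: Pld4 (1.22), Naaa (-1.24) and Faah (2.65), the last named after its values were seen. Faah was near the floor, at means of 0.287, 0.101, 0.689 and 1.61 CPM in the order of groups given above. It had 0 to 21 counts in the unstimulated AhR-deficient libraries.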

How the data were processed

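Poly(A) RNA of 24 BMDM cultures, 6 per group as given by the labels, was sequenced after a directional library preparation. With GSNAP the authors placed the read pairs on mm10, and with featureCounts 2.0.1 they made counts of unique fragments per Ensembl release 98 gene with the reverse strand setting. The deposited counts are not normalized, and the 92 spike-in rows (1 count in all) were left out. Depth was 45106052 to 76992663 counts per library.

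All 24 libraries entered 1 edgeR 4.0.16 model under R 4.3.3, with 1 mean per group, scaling by TMM, low counts removed by filterByExpr and the robust quasi-likelihood F-test. Adjustment after Benjamini and Hochberg was over 16593 genes. The genotypes were compared in each state, LPS with no stimulation in each genotype, and both LPS responses with each other. SE values are the fold change divided by the square root of F. The study's own test, DESeq2 (here 1.42.0), limma-voom (3.58.1), other scalings, filters and covariates, and leaving out each library were alternatives. The tests were checked on simulated data. Libraries were taken as replicates as labelled, so p-values measure the spread between these libraries.

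The 10 genes, the 3 pathway lists, the 8 marker lists and the tests were chosen with earlier results of these data known. The text names all 10 genes, Ahr, pathway genes that were DEGs between genotypes (at most 4 per list) and the 3 most similar genes for each gene called between genotypes. Pnpla7, Pla2g4c, Pla2g4f, Pla2g5, Acsl1, Mboat1, Acsl3 and Faah fall outside this rule and were named after their values were seen. So do the marker genes named singly, such as Ccr7, Mpo and Chil3. Symbols came from GENCODE M21 (55154 genes named) and promoters from RefSeq (GRCm38.p6). Summaries and plots used Python 3.11.15, pandas 2.3.3, numpy 2.4.6 and matplotlib 3.10.9.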

Additional observations from a re-analysis of the deposited data

Results flagged for a closer look

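In 3 of the 40 groups of 6 libraries tested (10 genes in 4 groups), 1 library stood apart from the others, where chance flags about 1 in 20. Lpcat2 in unstimulated wildtype library 33 was at 256.7 CPM, with the nearest library at 144 and the lowest at 120 CPM. Acsl4 in the same library was at 83.67 CPM, with the nearest at 147 and the highest at 166 CPM. Acsl4 in unstimulated AhR-deficient library 19 was at 80.79 CPM, with the nearest at 126 and the highest at 151 CPM.

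The response to LPS differed between the genotypes by the interaction term in edgeR's quasi-likelihood test for Pla2g7 (log2 difference -2.29, adjusted p = 0.0021), Lpcat1 (-1.775, adjusted p = 6.8e-04) and Pla2g15 (-0.6368, adjusted p = 0.028). Over the alternatives and left-out libraries the adjusted p ranged from 8.5e-06 to 0.005 for Pla2g7, from 9.9e-07 to 0.002 for Lpcat1 and from 2.0e-04 to 0.072 for Pla2g15.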

How the results depend on the processing

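No paired analysis was possible because each library has a number of its own and no source used here ties libraries to animals. The runs of library numbers entered as a factor in its place. Of 49 counts of called genes under other settings, 47 stayed within 1.5 times the count in the report. With total library size the DEGs after LPS in AhR-deficient cells fell from 7 to 4 (Pla2g4a, Pla2g15, Lpcat1 and Lpcat3), against 36.9% of all genes, and with the length slope the interaction calls rose from 3 to 6, adding Pla2g4a, Pla2g12a and Acsl4, against 17.3% of all genes. With a library left out the counts were 1 to 1 for each genotype comparison, 2 to 4 for LPS in wildtype, 7 to 8 for LPS in AhR-deficient cells and 2 to 4 for the interaction. Of 590 values under other settings 550 kept their direction and side of the threshold, 13 lost and 8 gained a call and 19 turned sign. The cause was not tested.

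Signs that turned were as follows. With total library size: Pla2g6 (-0.049), Pla2g12a (-0.10), Lpcat1 (-0.28) and Mboat7 (-0.34) for LPS in wildtype, Mboat7 for LPS in AhR-deficient cells (-0.29), Lpcat1 between genotypes without stimulation (-0.019) and the Lpcat2 interaction (-0.13). With limma-voom: Pla2g6 between genotypes after LPS (0.28), Pla2g6 (-0.34) and Lpcat1 (-0.053) for LPS in wildtype and the Lpcat2 interaction (-0.037). With the length slope: Pla2g6 for LPS in wildtype (-0.21) and between genotypes after LPS (0.084) and the Lpcat2 interaction (-0.13). With a mean of at least 1 CPM: Lpcat1 (-0.0029) and Mboat7 (-0.059) for LPS in wildtype. With only the 12 libraries compared, Mboat7 for LPS in wildtype was -0.034, with Y-linked counts as a factor Pla2g6 was -0.030, and with runs as a factor the Lpcat2 interaction was -0.016. With a library left out, values ran from -0.12 to 0.0040 for Pla2g4a without stimulation, from -0.69 to 0.027 for Pla2g6 and from -0.045 to 0.36 for Pla2g12a between genotypes after LPS, from -0.12 to 0.59 for Pla2g6, from -0.095 to 0.20 for Lpcat1 and from -0.053 to 0.11 for Mboat7 for LPS in wildtype, from -0.20 to 0.17 for the Lpcat2 interaction and from -0.28 to 0.025 for Naaa between genotypes after LPS.

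Over all genes, interaction calls were 713, and 1125 with DESeq2, 1201 with runs and 2877 with the length slope. Total library size lowered the share of DEGs that were higher from 52.8% to 33.9% for LPS in wildtype, from 49% to 28.2% for LPS in AhR-deficient cells and from 26% to 14.9% between genotypes after LPS, and moved the interaction's share from 45.4% to 31.4%. Between genotypes after LPS the length slope moved it to 36.1%. Counts of 1 to 563 per library limit Pla2g6 and Pla2g12a.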
